A study of Mus musculus with 6 samples.

Results

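The genes followed here are Atf4, its best known target genes and the cytosolic aminoacyl-tRNA synthetases that Atf4 can induce, 33 genes in all out of 54532 in the deposited count table. They were chosen by name, as rows whose gene symbol is one of a fixed list of 33 symbols, and fall into 21 stress genes (11 regulators and 10 enzymes of amino acid synthesis) and 12 synthetases. The symbols matched 34 rows, because Ddit3 has a second row, with 0 counts in every library, which was not used. The question was whether these genes differed between CD8T cells cocultured with control macrophages and CD8T cells cocultured with macrophages pretreated with the Spi1 inhibitor DB2313. Spi1, also called PU.1, is a transcription factor of myeloid cells. Mouse spleen CD8T cells had been activated with anti-CD3/CD28 beads in both groups. By the paper's general methods, the macrophages of both groups were thioglycolate-elicited peritoneal cells. For cocultures they received IFN-γ (10 ng/mL, 12 hr) and were then kept together with the CD8T cells for 24 hr. Elsewhere the paper induced C1q genes by treating monocytes with GM-CSF, and whether such cells were used here is not stated. Only in the DB2313 group had the macrophages been given DB2313, for which the methods state 14 nM. Each group has 3 libraries, named control 1 to 3 and DB2313 1 to 3. The strain, age and sex of the mice that gave these cells are not given in the sources used here, nor is it stated whether the 3 libraries came from separate cultures or pooled animals, so p-values measure only the spread between these libraries, which may be technical. GEO's labels name dendritic cells as the partner cells where the paper names macrophages.

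Atf4 is a bZIP transcription factor at the centre of the integrated stress response. When amino acids run short or unfolded proteins accumulate, kinases phosphorylate the initiation factor eIF2, which lowers general translation but raises translation of the Atf4 mRNA. Atf4 then induces genes for amino acid synthesis and uptake, for charging tRNAs, and for feedback and cell death. In T cells the same programme is used after activation, when proliferation raises the demand for serine, asparagine and one-carbon units. Aminoacyl-tRNA synthetases attach each amino acid to its tRNA. Because Atf4 is controlled largely at translation, its mRNA is no measure of its protein.

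Several of these genes share a promoter feature. Because the list names known Atf4 targets, a high share of it could follow from the choice itself. RefSeq promoters of GRCm38.p6, from 250 bases before to 50 after the transcription start, could be matched for 26 of the 33 genes. The core of the C/EBP-ATF response element to which Atf4 binds, TGATGNAA searched on both strands, was found in 12 of the 26, namely 7 of 19 stress genes and 5 of 7 synthetases. Over all promoters, 4.51% of 27025 genes held it. The following stretches are shown because they carry closely similar motif letters in genes whose counts moved differently. The motif is in capitals, and each sequence reads 5′ to 3′ on the gene's own strand.
Chac1 (chr2:119351029-119351076, plus strand): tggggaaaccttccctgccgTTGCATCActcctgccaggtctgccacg
Atf3 (chr1:191183416-191183463, minus strand): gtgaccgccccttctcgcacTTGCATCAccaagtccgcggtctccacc
Nupr1 (chr7:126625553-126625600, minus strand): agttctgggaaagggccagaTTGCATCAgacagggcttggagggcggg
Asns (chr6:7693210-7693252, minus strand): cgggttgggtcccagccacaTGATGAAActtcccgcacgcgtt
Aars (chr8:111033710-111033757, plus strand): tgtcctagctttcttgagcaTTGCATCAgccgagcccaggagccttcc
Tars (chr15:11399659-11399693, minus strand): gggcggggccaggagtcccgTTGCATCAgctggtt
The same 8 letters TTGCATCA, the motif on the opposite strand, stand in Chac1, Atf3, Nupr1, Aars and Tars, and Asns carries TGATGAAA. Among the genes not shown, TTGCATCA also stands in Vldlr and Iars. Pycr1 and Yars carry TGATGCAA, and Gars carries TTTCATCA. Trib3 has TTACATCA 15 bases after its start. No match was found in the windows of Atf4, Atf5, Ddit3, Ddit4, Sesn2, Psat1, Phgdh, Psph, Shmt2, Mthfd2, Aldh18a1, Cbs, Eprs or Sars. This says only that these letters are not there. Eif4ebp1, Cth, Cars, Lars, Nars, Wars and Vars had no matched promoter and were not searched. A match is a description of sequence and not a binding site. As given below, Chac1 and Asns rose, Atf3 fell, and Nupr1, Aars and Tars did not pass the test. Of the other genes with a match, Trib3, Vldlr, Iars and Gars rose, and Pycr1 and Yars did not pass.

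Between 16611975 and 18596217 reads per library were counted on genes, and 14883 genes passed the filter on low counts. A gene at 0 in a library could still have up to 3 counts there, a limit that covers counting error only. The RNA was that of mixed cells: all 25 macrophage markers and all 20 T cell markers were counted in both groups. The T cell markers took 0.357% to 0.364% of the counts in the control libraries and 0.576% to 0.581% in the DB2313 libraries, and all 20 rose, by 0.32 to 0.74 on the log2 scale with a median of 0.61. The macrophage markers took 1.44% to 1.47% and 0.597% to 0.613%, with 22 of 25 lower, 3 higher and a median of -1.15. Dendritic cell markers took 0.164% to 0.167% and 0.148% to 0.153%, with 7 of 9 tested genes lower, 1 higher and Siglech at 0 in every library. Neutrophil markers took 0.148% to 0.149% and 0.0840% to 0.0867%, a pooled share that joins genes moving in opposite directions. Of these 9 genes, 6 were lower (S100a8, S100a9, Ly6g, Cxcr2, Csf3r and Ltf) and 3 higher (Mpo, Elane and Retnlg). B cell markers took at most 0.00640% in any library, with 3 of 6 higher and 1 lower. In such bulk RNA, fewer cells of a type and less RNA per cell cannot be told apart. The part of these marker changes in the results below was not tested beyond the scaling to T cell markers given with them.

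Among the 11 stress regulators, Trib3 and Chac1 rose most and Sesn2 fell most in the DB2313 group. At an adjusted p below 0.05, 6 of the 11 were higher, 2 were lower and 3 did not pass, with a median log2 fold change of 0.15, against 0.019 over all tested genes. The same test called 20.8% of all tested genes higher and 24.6% lower, 45.4% in all. When libraries were scaled to the T cell markers instead of by TMM, 1 regulator was higher and 7 were lower. Under that scaling, 170 of all 14883 tested genes were higher and 11513 lower.

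Atf4 itself (ENSMUSG00000042406, chromosome 15 of GRCm38 from 80255184 to 80257541, plus strand) was at 212.9, 214.6 and 216.2 CPM in the control libraries and at 279.8, 254.9 and 262.4 CPM in the DB2313 libraries. Here CPM are TMM-normalized counts, relative to library size. All DB2313 libraries lay above all control libraries, with a rise of 1.24-fold (log2 fold change 0.31, standard error 0.04, adjusted p = 2.79e-07, quasi-likelihood test of edgeR, Benjamini-Hochberg adjusted over all tested genes). This was just under the smallest rise among the T cell markers, and with scaling to those markers the sign of Atf4 turned, to -0.28. That scaling shifted the median of all tested genes by -0.59. It describes T cells only for genes whose RNA came from them, and in this mixed RNA the source of each gene's counts was not tested.

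Trib3, a pseudokinase that acts as a feedback inhibitor downstream of Atf4 and Ddit3, lies on chromosome 2 from 152337422 to 152344032. It was at 14.1, 13.1 and 12.9 CPM in the control libraries and 26.2, 25.6 and 23.2 CPM in the DB2313 libraries. The lowest DB2313 library was well above the highest control library. The rise was 1.86-fold (log2 fold change 0.90, standard error 0.09, adjusted p = 1.52e-08, the same edgeR test), and Trib3 remained higher with scaling to the T cell markers, at 0.31.
Chac1, an enzyme that degrades glutathione, lies on the same chromosome from 119351229 to 119354381. It was counted only 43 to 57 times in a control library and 83 to 109 times in a DB2313 library, or 3.16, 2.5 and 2.69 against 5.90, 4.86 and 5.65 CPM. The groups did not overlap, and the rise was 1.96-fold (log2 fold change 0.97, standard error 0.19, adjusted p = 0.00018, the same edgeR test). With scaling to the T cell markers Chac1 was at 0.39 and did not pass the threshold.
Ddit3, the proapoptotic transcription factor also called Chop, was at 33.3, 35.8 and 37.7 CPM in the control libraries and 48.0, 50.4 and 48.6 CPM in the DB2313 libraries. The groups did not overlap, with a rise of 1.38-fold (log2 fold change 0.46, standard error 0.06, adjusted p = 2.72e-06, the same edgeR test). With scaling to the T cell markers it was at -0.13 and did not pass. Ddit3 shares 68 bases with Mars on the opposite strand (log2 fold change 0.19), and whether the counting used the strand is not stated.
Vldlr, a lipoprotein receptor induced by Atf4, had few reads, with 28 to 42 counts in a control library and 44 to 66 in a DB2313 library. Its levels were 2.33, 1.86 and 1.71 against 3.57, 2.58 and 3.21 CPM. The groups did not overlap, and Vldlr was at 0.66 on the log2 scale (standard error 0.25, adjusted p = 0.032, the same edgeR test). The call was lost with DESeq2 and without control 2, control 3, DB2313 1 or DB2313 3. With each of the 6 libraries left out in turn, the value ranged from 0.55 to 0.80. Scaled to the T cell markers, Vldlr was at 0.077 and did not pass.

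Sesn2 and Atf3 moved the other way. Sesn2, a leucine sensor that restrains mTORC1, lies on the minus strand of chromosome 4 from 132492032 to 132510501. It was at 71.1, 74.1 and 76.5 CPM in the control libraries and 44.0, 42.7 and 41.5 CPM in the DB2313 libraries, so that every DB2313 library was far below every control library. The log2 fold change of -0.79 (standard error 0.06, adjusted p = 2.90e-11, the same edgeR test) was the largest fall among the 32 tested members, and it was -1.38 with scaling to the T cell markers. Atf3, a bZIP factor of the same stress response, fell by 0.35 on the log2 scale, with no overlap between the groups.
Ddit4, which inhibits mTORC1 after stress, was at 0.15, past the threshold although its groups overlapped, and the call was lost with DESeq2, with the replicate number as a block and without control 1, control 2, DB2313 1 or DB2313 2 (0.10 to 0.23 with each of the 6 libraries left out). Scaled to the T cell markers, Ddit4 turned to a called fall, at -0.44. Atf5 (0.063), Eif4ebp1 (0.080) and Nupr1 (-0.26) did not pass the test, and their groups overlapped. Nupr1 passed without control 1, at -0.34, and with scaling to the T cell markers, at -0.85. Atf5 shares 571 bases with Nup62 on the opposite strand.

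**Figure D1:**
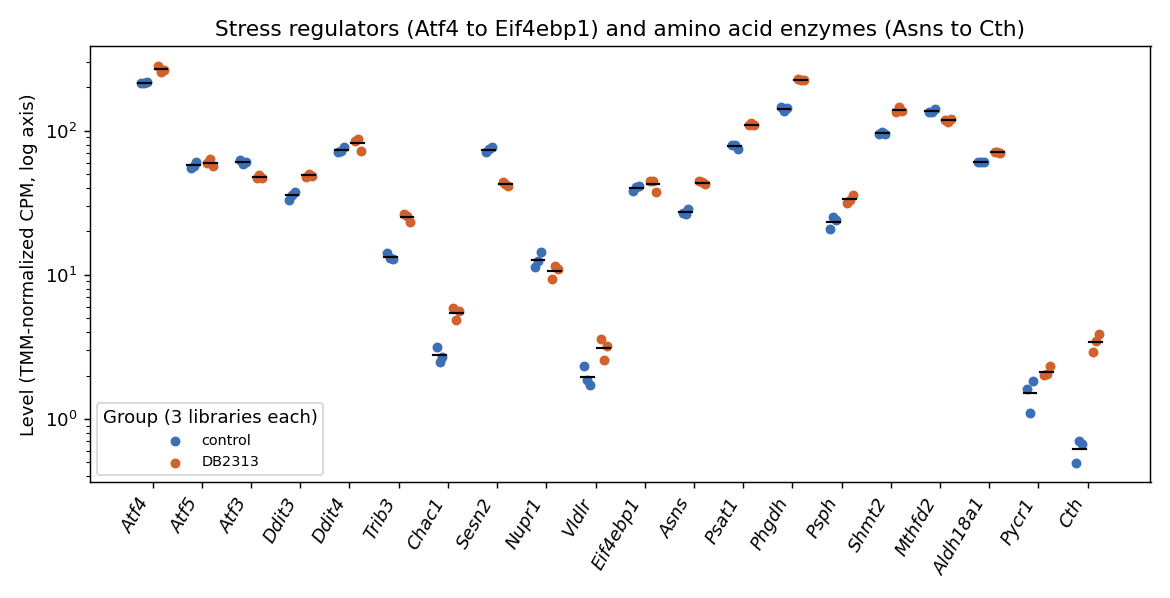
Level of each tested stress gene in every library, in TMM-normalized CPM on a log axis, with 3 control libraries in blue, 3 DB2313 libraries in orange and the group mean as a black bar. Trib3, Chac1, Asns, Phgdh and Cth sit higher in all DB2313 libraries, Sesn2, Atf3 and Mthfd2 lower, and Atf5, Ddit4, Nupr1 and Eif4ebp1 overlap.

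Most of the enzymes of amino acid synthesis rose. Of 10 genes, 9 were tested, of which 7 rose, 1 (Mthfd2) fell and 1 (Pycr1) did not pass, beside 20.8% higher and 24.6% lower among all tested genes. Their median log2 fold change was 0.52, with a range from -0.22 to 2.45. In all 9 the groups did not overlap, as was the case in 26 of the 32 tested members and in 53.1% of all tested genes. Their summed level was 561.0 to 571.0 CPM in the control libraries and 740.5 to 751.3 CPM in the DB2313 libraries. Under the T cell marker scaling, the median was -0.071, with 2 higher and 2 lower. Of all 14883 tested genes, 170 were then higher and 11513 lower. Of the 9 genes, 6 lay within the range of the T cell markers under TMM.

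The serine pathway starts from a glycolytic intermediate with Phgdh, Psat1 and Psph. Phgdh, the first enzyme (ENSMUSG00000053398, minus strand of chromosome 3 from 98313170 to 98339990), was at 144.9, 136.1 and 143.8 CPM in the control libraries and 226.2, 224.8 and 223.5 CPM in the DB2313 libraries. The DB2313 libraries were tightly grouped above the control libraries, 1.59-fold higher (log2 fold change 0.67, standard error 0.04, adjusted p = 2.95e-13, the same edgeR test).
Psat1, the aminotransferase of the second step, was at 78.9, 79.5 and 74.6 CPM against 108.8, 112.8 and 108.6 CPM. Its groups were also well apart, with a log2 fold change of 0.50 (standard error 0.04, adjusted p = 1.25e-09, the same edgeR test).
Psph, the phosphatase that releases serine, was at 20.9, 25.3 and 23.9 CPM against 31.5, 33.2 and 35.5 CPM. It rose by 0.52 on the log2 scale (standard error 0.08, adjusted p = 1.33e-05, the same edgeR test), again without overlap. It shares 452 bases with the more highly counted Cct6a, which lies on the opposite strand and was at 0.0030.
Shmt2, which turns serine into glycine in mitochondria and feeds the folate cycle, was at 94.4, 98.0 and 94.7 CPM against 133.7, 145.6 and 137.7 CPM. All DB2313 libraries were higher, with a log2 fold change of 0.54 (standard error 0.04, adjusted p = 1.61e-10, the same edgeR test). With scaling to the T cell markers Phgdh was at 0.080, at the edge of the threshold, and Psat1 (-0.085), Psph (-0.071) and Shmt2 (-0.050) turned in sign and did not pass.
Mthfd2, the mitochondrial folate enzyme that acts next to Shmt2 in the one-carbon pathway, did not follow it. Its level was 133.7 to 142.3 CPM in the control libraries and 114.2 to 119.8 CPM in the DB2313 libraries, and its log2 fold change was -0.22, and -0.81 with scaling to the T cell markers.

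Asns, which makes asparagine and is a standard readout of Atf4 activity, lies on the minus strand of chromosome 6 from 7675169 to 7693254. It was at 26.7, 26.4 and 28.5 CPM in the control libraries and 44.5, 43.9 and 42.4 CPM in the DB2313 libraries. There was no overlap, and the rise was 1.61-fold (log2 fold change 0.68, standard error 0.07, adjusted p = 9.91e-09, the same edgeR test). With scaling to the T cell markers it was at 0.096 and did not pass.
Cth, the last enzyme of cysteine synthesis by transsulfuration, had the largest change of the 32 tested members, though from a low level. Its counts were 9, 12 and 11 in the control libraries and 54, 59 and 72 in the DB2313 libraries, or 0.499, 0.698 and 0.672 against 2.92, 3.46 and 3.91 CPM. The groups were far apart, with a rise of 5.48-fold (log2 fold change 2.45, standard error 0.30, adjusted p = 4.31e-07, the same edgeR test). It was the only tested member past a log2 fold change of 1 in size: 1 of 20 tested stress genes was higher at that threshold, as were 1.37% of all tested genes, and 0 were lower, as were 5.3% of all. With scaling to the T cell markers Cth was at 1.87 and still past the adjusted p. Cbs, the enzyme before it, was counted 0 to 2 times in a control library and 2 to 6 times in a DB2313 library and was not tested.
Of the proline enzymes, Aldh18a1 rose by 0.22 on the log2 scale, a sign that turned to -0.37 with scaling to the T cell markers. Pycr1, at 19 to 43 counts in a library, was at 0.49 (standard error 0.29) and did not pass.

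**Figure D2:**
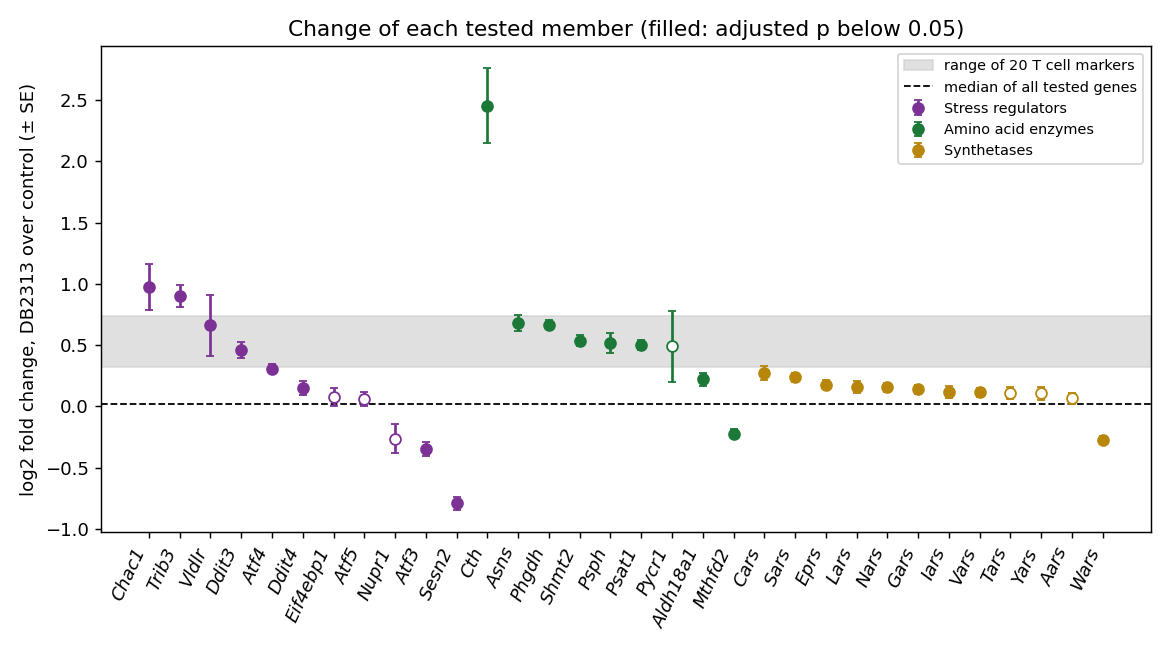
Log2 fold change of DB2313 over control for each of the 32 tested members, with standard errors; filled points passed an adjusted p of 0.05. The grey band is the range of the 20 T cell markers (0.32 to 0.74) and the dashed line the median of all tested genes (0.019); most amino acid enzymes lie in the band, and all 12 synthetases lie below it.

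The 12 synthetases moved little and, with the exception of Wars, together. At an adjusted p below 0.05, 8 of 12 were higher, 1 was lower and 3 did not pass, where 20.8% of all tested genes were higher and 24.6% lower. None was past a log2 fold change of 1 in either direction. The median log2 fold change was 0.13, with a range from -0.27 to 0.27, against a median of 0.48 and a range from -0.79 to 2.45 in the 20 tested stress genes. Their sum went from 1520 to 1571 CPM in the control libraries to 1635 to 1664 CPM in the DB2313 libraries. These small rises depend on the scaling: with library size or upper quartile scaling 11 were higher and Wars lower, and with scaling to the T cell markers all 12 were lower, with a median of -0.46. Of all 14883 tested genes, 4931 were higher with library size and 4319 with upper quartile scaling, and 11513 were lower with scaling to the T cell markers.

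The largest rises were in Cars, at 40.6, 41.3 and 41.0 CPM in the control libraries and 50.1, 50.0 and 48.5 CPM in the DB2313 libraries, and in Sars, at 163.4, 171.2 and 170.4 CPM against 196.7, 205.3 and 193.6 CPM. These enzymes charge the tRNAs of cysteine and serine. Their groups did not overlap, and their log2 fold changes were 0.27 (standard error 0.06) and 0.24 (standard error 0.04). Eprs (0.18), Lars (0.16), Nars (0.16), Gars (0.14), Iars (0.12) and Vars (0.11) also passed the test under TMM, whereas all of them were below 0 with scaling to the T cell markers.
Tars (0.11), Yars (0.11) and Aars (0.066) did not pass. The call of Iars was lost with DESeq2, with no filter, with the replicate block and without any single library except DB2313 3 (0.10 to 0.14). The call of Lars was lost without control 1, control 3 or DB2313 3 (0.12 to 0.20 over the 6 fits), and that of Vars without control 1 or control 2 (0.10 to 0.14). Without control 1, 5 synthetases rather than 8 were higher, and without control 2 Tars passed as well, at 0.15.

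Wars, the tryptophanyl-tRNA synthetase, is also a well-known interferon-γ-induced gene. It lies on the minus strand of chromosome 12 from 108860030 to 108894174. It was at 232.6, 241.8 and 242.9 CPM in the control libraries and 193.6, 200.8 and 199.1 CPM in the DB2313 libraries. All DB2313 libraries were below all control libraries, and Wars was at -0.27 (standard error 0.04, adjusted p = 7.13e-07, the same edgeR test), or -0.86 with scaling to the T cell markers. Wars shares 544 bases with Wdr25 on the opposite strand, which had at most 128 counts in a library.
Per kilobase of the deposited gene length, Wars was the highest of the 12 synthetases in the control group at 69.4 ± 1.64 CPM per kilobase, ahead of Nars at 63.8 ± 0.962 (SD, n = 3 each). In the DB2313 group the order was reversed, with Nars at 71.1 ± 2.09 and Wars at 57.4 ± 1.10 CPM per kilobase (SD, n = 3 each). This held in each of the 3 libraries of either group. The places below did not change: Gars, Vars, Sars, Lars, Aars, Iars, Tars, Yars, Eprs and Cars followed in both groups, down to 6.22 ± 0.0480 and 7.52 ± 0.139 CPM per kilobase in Cars (SD, n = 3 each). Neighbours with close levels, such as Aars at 16.7 ± 0.980 and Iars at 14.7 ± 0.255 in the control group, were not tested against each other. On the same per-length scale, Atf4 was at 91.0 and 112.7 CPM per kilobase in the control and DB2313 groups, above all other members, and Phgdh at 57.0 and 90.4.

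**Figure D3:**
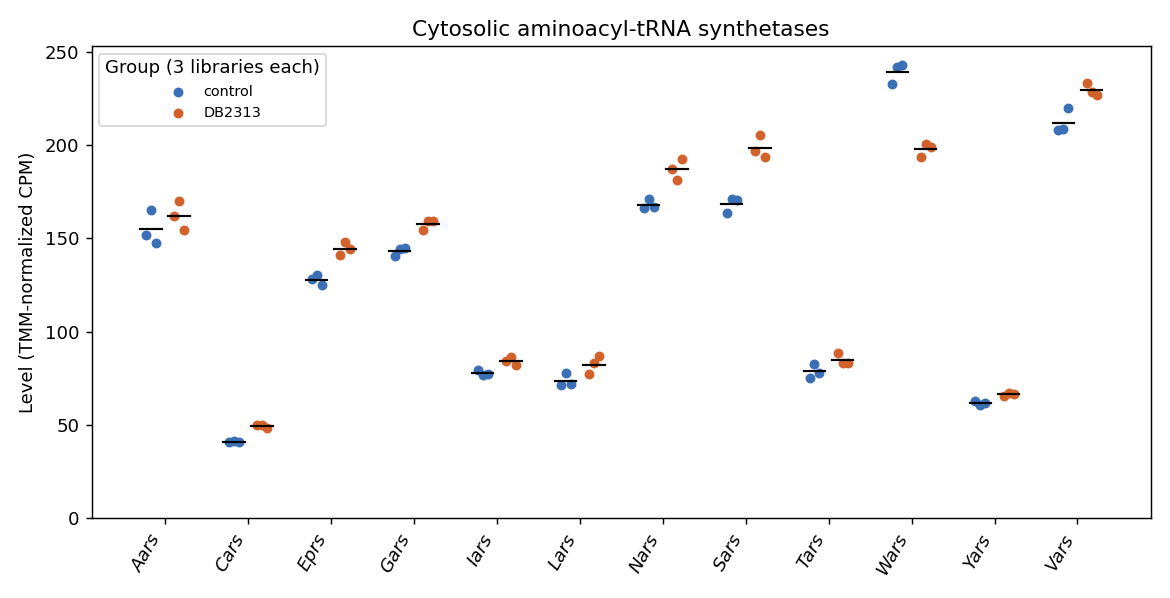
Level of each synthetase in every library, in TMM-normalized CPM on a linear axis from 0, with 3 control libraries in blue, 3 DB2313 libraries in orange and the group mean as a black bar. Wars is lower in all DB2313 libraries; Cars and Sars are higher in all of them, and the groups overlap in Aars and Lars.

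The remaining synthetases were followed as related lists. Under TMM, 20.8% of all tested genes were higher and 24.6% lower. Of the 14883 tested genes, 4931 were higher with library size scaling and 4319 with upper quartile scaling. With scaling to the T cell markers, 170 were higher and 11513 lower. Of 12 other cytosolic synthetases and complex proteins, 4 rose, 1 fell (Qars, at -0.17) and 7 did not pass under TMM, with a median log2 fold change of 0.11. With library size scaling 9 were higher and 0 lower, whereas with scaling to the T cell markers all 12 were lower. Those that rose included Aimp1, a scaffold of the multisynthetase complex (0.28, standard error 0.06), and Mars (0.19, standard error 0.04). Of 17 mitochondrial synthetases, 3 rose, 1 fell and 13 did not pass, with a median of 0.090. With library size scaling 9 were higher, with upper quartile scaling 8 and with DESeq2 1, and with scaling to the T cell markers 16 were lower. The one that fell was Lars2, at 151.7 ± 12.5 CPM in the control group and 62.2 ± 11.8 CPM with DB2313 (SD, n = 3 each), a log2 fold change of -1.28 (standard error 0.08, adjusted p = 3.09e-12, the same edgeR test). Vars2 (0.30), Pars2 (0.34) and Ears2 (0.26) rose under TMM and were below 0 with scaling to the T cell markers.

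Upstream of Atf4, no common direction was seen under TMM, where 20.8% of all tested genes were higher and 24.6% lower. Of 18 genes for eIF2 kinases, eIF2 and eIF2B subunits and their phosphatase regulators, 5 rose, 6 fell and 7 did not pass, with a median of -0.032. DESeq2 called 3 higher. With scaling to the T cell markers 0 rose and 17 fell, where 11513 of all 14883 tested genes fell. Eif2ak4, the kinase also called Gcn2 that senses uncharged tRNA, was at 26.7 ± 1.68 and 21.5 ± 0.965 CPM (SD, n = 3 each), a log2 fold change of -0.31 (standard error 0.08), and Impact, an inhibitor of this kinase, was at -0.27 (standard error 0.07). The eIF2B subunits Eif2b3 (0.40, standard error 0.11) and Eif2b1 (0.30, standard error 0.08) rose under TMM and were at -0.19 and -0.29 with scaling to the T cell markers.

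Further known Atf4 targets were split as well, beside 20.8% higher and 24.6% lower among all tested genes. Of 24 tested genes of 25, 8 rose, 7 fell and 9 did not pass, with a median of 0.028, and DESeq2 called 5 higher. With scaling to the T cell markers 1 rose and 18 fell, where 11513 of all 14883 tested genes fell. Gdf15, a secreted stress cytokine, was at 14.2 ± 1.05 and 26.7 ± 0.313 CPM (SD, n = 3 each), a log2 fold change of 0.91 (standard error 0.09, adjusted p = 5.91e-09, the same edgeR test), and at 0.32 with scaling to the T cell markers. Slc7a11, the cystine transporter, was at 85.2 ± 1.96 and 29.9 ± 1.30 CPM (SD, n = 3 each), a log2 fold change of -1.51 (standard error 0.06, adjusted p = 3.32e-16, the same edgeR test). The autophagy receptor Sqstm1 was at -0.44 (standard error 0.03) and the transcription factor Nfil3 at -0.46 (standard error 0.06).
Of 18 tested genes of 19 for serine, one-carbon, methionine and proline metabolism, 6 rose, 1 fell and 11 did not pass, with a median of 0.091. Among all tested genes, 20.8% were higher and 24.6% lower. With library size scaling 0 of the list were lower. With scaling to the T cell markers 0 rose and 16 fell, where 11513 of all 14883 tested genes fell. Ahcy, which hydrolyses S-adenosylhomocysteine, rose by 0.56 (standard error 0.05) under TMM but was at -0.028 with scaling to the T cell markers, and Mthfd1l, which makes formate in mitochondria, rose by 0.29 (standard error 0.06) and was at -0.30.
Beside the fall of Wars, 7 of 14 other interferon-γ target genes fell, 3 rose and 4 did not pass, with a median of -0.050, where 24.6% of all tested genes were lower and 20.8% higher. These counts became 6 higher and 6 lower with library size scaling, and 14 lower with scaling to the T cell markers. Of all 14883 tested genes, 4931 were higher and 2852 lower with library size scaling, and 11513 were lower with scaling to the T cell markers. The largest falls were in Ciita (-2.45, standard error 0.04), the master regulator of MHC class II, and Irf8 (-1.08, standard error 0.03), a myeloid transcription factor.

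**Figure D4:**
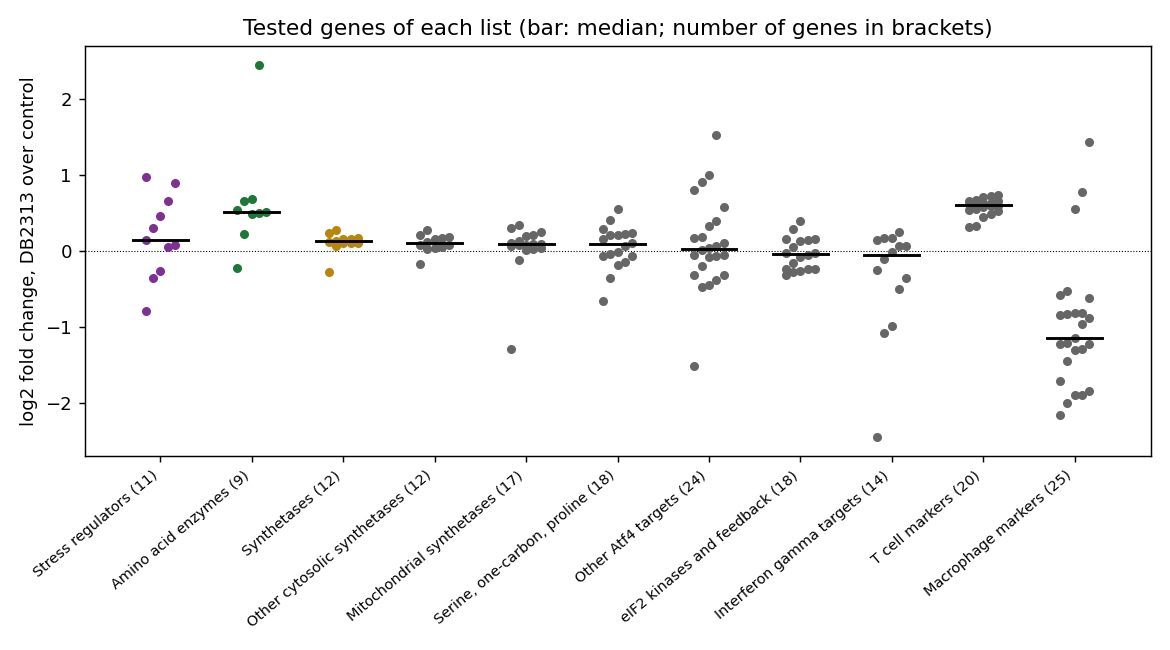
Log2 fold change of DB2313 over control for every tested gene of each list, with TMM scaling; bars are medians and the number of genes is in brackets. The amino acid enzymes (median 0.52) lie nearest to the T cell markers (0.61), the synthetase lists lie close to 0, and the macrophage markers have a median of -1.15.

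For each single gene, an exact permutation test over 3 against 3 libraries cannot go below a two-sided p of 0.1, which is reached whenever the groups do not overlap.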

How the data were processed

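RNA of the 6 cocultures (3 control, 3 DB2313) was sequenced, and the authors deposited raw counts per gene. For alignment and counting, the paper's methods name LifeScope, whereas the submitters' processing notes name CASAVA 1.8, HISAT2 2.0.5 and featureCounts 1.5.0-p3, and these sources conflict. Genome build and strand setting are not given in the sources used here. Of 54495 genes shared with GENCODE mouse release M21, 98.33% had its GRCm38 coordinates. Gene length, biotype and position were also deposited, and the length was used for values per kilobase.
Columns were matched to samples by description. The test was the quasi-likelihood F test of edgeR 4.0.16 in R 4.3.3, after its default filter on low counts and TMM scaling, with Benjamini-Hochberg adjustment over the 14883 tested genes and a threshold of 0.05. Each standard error is the fitted change divided by the root of F. TMM assumes that most genes do not change. Scaling to the T cell markers sets their summed counts equal between libraries, and describes T cells only for genes whose RNA came from T cells. Libraries held 16611975 to 18596217 counts. Replicates differed by more than sampling noise (chi-square per gene 2.54 to 4.00 within groups), so none was a copy.
The members, lists and tests were chosen with earlier results of these data known. Full values are given for members past the threshold with an absolute log2 fold change above 0.5, for Atf4, Asns, Chac1, Trib3, Ddit3 and Wars in any case, and for up to 4 called genes per other list with at least 10 CPM. Atf3, Mthfd2, Cars, Sars, Nars and Qars were given values after these had been seen, outside this rule.
Alternatives were DESeq2 1.42.0, library size, median-of-ratios, upper quartile and T cell marker scaling, leaving out the filter, a minimum of 10 counts in each library, protein-coding genes, a replicate block, leaving out each library, and a threshold on the fold change. On simulated counts with 200 genes changed, edgeR called 197 of them and 11 unchanged genes among 14888 tested. DESeq2 called 181 and 6 unchanged genes among 26173. In the data, 6763 of 14883 tested genes were called. How either tool performs with so many genes called, or with fold changes as small as those of the synthetases, was not tested.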

Additional observations from a re-analysis of the deposited data

How the results depend on the processing

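Of 479 values of single members under the alternatives, 420 had the same direction and the same call, 27 lost the call, 11 gained it and 21 changed sign; all 21 changes of sign came from scaling to the T cell markers, which shifted the median of all genes by -0.59. Under that scaling, 170 genes were higher and 11513 lower in place of 3096 and 3667, 3 stress genes were higher in place of 13 and 9 lower in place of 3, and 0 synthetases were higher and 12 lower in place of 8 and 1. The medians were then -0.11 in the stress genes and -0.46 in the synthetases. The members that changed sign were Atf4 (-0.28), Atf5 (-0.52), Ddit3 (-0.13), Ddit4 (-0.44), Eif4ebp1 (-0.51), Psat1 (-0.085), Psph (-0.071), Shmt2 (-0.050), Aldh18a1 (-0.37), Pycr1 (-0.092), Aars (-0.52), Cars (-0.31), Eprs (-0.41), Gars (-0.45), Iars (-0.47), Lars (-0.43), Nars (-0.43), Sars (-0.35), Tars (-0.47), Yars (-0.48) and Vars (-0.47). With library size scaling 4931 genes were higher, and the medians were 0.57 in the stress genes and 0.22 in the synthetases, or 0.54 and 0.19 with the upper quartile. With a threshold on the fold change added, 204 genes were higher and 789 lower, with 1 stress gene higher and 0 lower, and 0 synthetases in either direction. Leaving out each library in turn, the stress gene median ranged from 0.39 (without control 2) to 0.49, and the synthetases that were higher from 5 (without control 1) to 7. Samples with the same replicate number did not deviate together (correlations from -0.023 to -0.0033). This shows no pairing by number but cannot exclude one, because the libraries of a group differ little. With the replicate block, 19 members were higher and 4 lower in place of 21 and 4. DESeq2 called 18 higher and 4 lower. Genes with few counts, such as Vldlr, Pycr1 and Cbs, are limited by depth.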
